A study of Homo sapiens with 2 samples.

Results

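DCX, STMN4, NRXN2 and DPYSL3 are 4 genes of maturing neurons whose RNA was compared between neuroblastoma cells given small interfering RNA (siRNA) against MYCN and cells given control siRNA. They were taken by gene symbol from the platform annotation, as 4 of the 14812 genes with a named row, and each has 1 probe set (a group of short probes read together). They were chosen because their difference between the 2 arrays was already known, so that difference is a description here and carries no test. The cells were BE(2)C, a human neuroblastoma line that is a clonal subline with amplified MYCN. The MYCN siRNA group was 1 culture transfected with a single siRNA product against MYCN, and the control siRNA group was 1 culture transfected with non-targeting siRNA from another supplier. A lipid reagent carried the siRNA into both cultures, RNA was isolated 36 hours later, and 100 ng of it was labelled for Affymetrix Human Gene 2.0 ST arrays. With 1 siRNA against MYCN, its effects through MYCN and through other transcripts cannot be told apart, and neither can they be told apart from differences between the siRNA suppliers or the cultures. MYCN's own level was not analysed here.

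Immature neurons move and send out axons by reshaping microtubules. Doublecortin (DCX) binds and stabilises microtubules in migrating neurons. Stathmins, of which STMN4 is a neuronal member, bind free tubulin and favour microtubule disassembly. The collapsin response mediator proteins (CRMPs), of which DPYSL3 is CRMP4, bind tubulin and actin in growth cones, the moving tips of axons. Neurexins such as NRXN2 stand on the presynaptic side and bind partners across the synapse. In sympathetic neuroblastoma cells such genes are used as signs of how far a cell has gone towards a neuron. MYCN is a transcription factor that binds DNA with its partner MAX at E-boxes, short sites whose best-known letters are CACGTG.

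Because the targeted factor binds DNA, the stretches before the transcription starts are shown for the members that the RefSeq promoter table of GRCh38.p14 holds, DCX with 3 starts and DPYSL3 with 2. Each stretch is the 250 bases before a start, 5′ to 3′ on the minus strand, in lower case with every match to CANNTG, the general E-box pattern, in capitals. The stretch before the second DCX start overlaps the first and is not shown. The stretch before the outermost start is chrX:111412193-111412442 for DCX and chr5:147510069-147510318 for DPYSL3. The stretch before the inner start is chrX:111411147-111411396 for DCX and chr5:147453693-147453942 for DPYSL3.
DCX outermost start: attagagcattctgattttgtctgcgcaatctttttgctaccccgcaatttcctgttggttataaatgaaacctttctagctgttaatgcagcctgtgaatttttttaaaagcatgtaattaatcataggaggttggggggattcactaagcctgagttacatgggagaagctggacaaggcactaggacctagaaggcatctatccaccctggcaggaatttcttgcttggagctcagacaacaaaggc
DCX inner start: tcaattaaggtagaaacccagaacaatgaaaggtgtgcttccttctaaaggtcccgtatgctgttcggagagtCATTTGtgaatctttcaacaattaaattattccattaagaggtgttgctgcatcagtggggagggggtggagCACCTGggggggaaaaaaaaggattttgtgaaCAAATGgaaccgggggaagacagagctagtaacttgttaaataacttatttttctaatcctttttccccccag
DPYSL3 outermost start: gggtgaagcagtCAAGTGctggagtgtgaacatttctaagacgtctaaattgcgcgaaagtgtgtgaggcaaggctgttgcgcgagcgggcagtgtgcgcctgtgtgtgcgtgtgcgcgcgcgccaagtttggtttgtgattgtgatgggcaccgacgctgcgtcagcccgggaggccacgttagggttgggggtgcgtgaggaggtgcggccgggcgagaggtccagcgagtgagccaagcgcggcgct
DPYSL3 inner start: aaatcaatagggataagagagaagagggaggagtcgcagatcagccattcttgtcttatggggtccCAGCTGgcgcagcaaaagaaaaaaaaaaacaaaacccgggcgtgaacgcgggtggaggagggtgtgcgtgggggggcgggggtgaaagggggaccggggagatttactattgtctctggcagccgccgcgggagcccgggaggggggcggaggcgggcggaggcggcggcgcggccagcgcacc
Searched on both strands, none of the 5 stretches of DCX and DPYSL3 held CACGTG, which 6.34% of the 35116 stretches in the table held. Neither did any of them hold CATGTG (9.42% of the table) or the related CACGCG (9.72% of the table). The first and second of these motifs are cases of the general pattern, while the third is not. The general pattern CANNTG, held by 61.8% of all stretches, was absent from the stretches before the first and second DCX starts. It occurred 3 times before the inner DCX start, first as CATTTG, then as CACCTG and last as CAAATG. It occurred once before each DPYSL3 start, as CAAGTG before the outermost and CAGCTG before the inner one. The stretches of the 2 genes also differed in base composition. Which of the annotated starts these cells use was not tested. The 3 DCX stretches held 2, 1 and 3 CpG dinucleotides and were 42.8%, 44% and 42% G or C, while the 2 DPYSL3 stretches held 25 and 21 CpGs and were 62.8% and 63.6% G or C. The medians of all stretches were 11 CpGs and 58% G or C. A match in letters is a description and says nothing of binding.

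The values below are the authors' log2 RMA values, in which 1 unit is a doubling. Genes were called measured if their value reached the median of the whole table (4.55 for the MYCN siRNA array, 4.60 for the control siRNA array) on either array. This kept 10592 genes, and all 4 members passed on both arrays. The arrays correlated at r = 0.986 over 46255 rows, and the differences of the measured genes (MYCN siRNA minus control siRNA) had a median of 0.01 and an SD of 0.43. There is no replicate, and each member has a single probe set, so none of the 4 has an error of its own. The yardstick used is the spread between probe sets of the same gene, an SD of 0.32 per probe set from 374 genes, which leaves out spread between cultures and arrays.

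DCX had a log2 level of 6.10 on the MYCN siRNA array, against 5.19 on the control siRNA array. That is 1.87-fold higher (log2 difference 0.91), or 2.85 times the probe-set SD. The DCX probe set lay 1.55 above the array median in MYCN siRNA cells and 0.59 above it in control cells, so its control value was close to the level at which signal is not shown to exceed background. In bulk RNA, more cells that express a gene and more of its RNA per cell cannot be told apart. STMN4 had a log2 level of 6.10 in MYCN siRNA cells and 5.31 in control cells, which is 1.72-fold higher (log2 difference 0.78, 2.47 times the probe-set SD). NRXN2 had a log2 level of 6.27 in MYCN siRNA cells and 5.44 in control cells, 1.78-fold higher (log2 difference 0.83, 2.62 times the probe-set SD). Both STMN4 and NRXN2 were likewise dim in control cells, at 0.71 and 0.83 above that array's median.

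DPYSL3 differed from the other 3 genes in direction. Its log2 level was 8.68 in MYCN siRNA cells, against 9.50 in control cells. That is 1.77-fold lower (log2 difference −0.82, 2.59 times the probe-set SD). The probe set lay 4.13 above the MYCN siRNA array's median and 4.90 above that of the control array, so both values are far from the dim range. On the linear scale the DPYSL3 signal was 410 in MYCN siRNA cells and 724 in control cells.

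**Figure D1:**
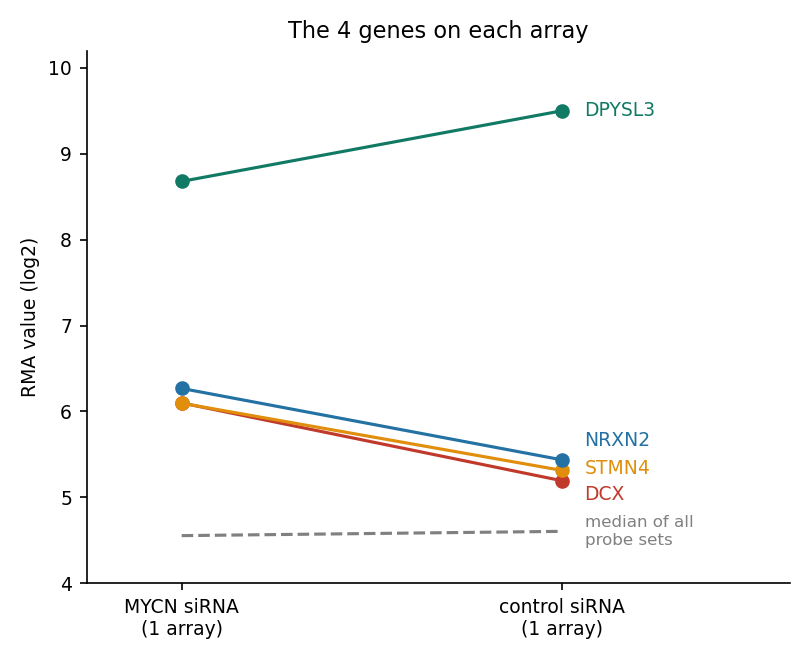
RMA value (log2) of DCX, STMN4, NRXN2 and DPYSL3 on the MYCN siRNA array (left) and the control siRNA array (right), 1 array each, with the median of all probe sets as a dashed line. DCX, STMN4 and NRXN2 lie between 6.10 and 6.27 with MYCN siRNA and between 5.19 and 5.44 with control siRNA, and DPYSL3 lies at 8.68 with MYCN siRNA and 9.50 with control siRNA.

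Among all 10592 measured genes, 8.81% were higher in MYCN siRNA cells by 1.5-fold or more, and 5.79% were lower by as much. DCX, STMN4 and NRXN2 were on the higher side of that line and DPYSL3 on the lower side, and since they were chosen on this contrast nothing is read from the count of 4. None of the 4 passed 2-fold, which 2.21% of measured genes passed upward and 1.16% downward. DCX ranked 325th from the top, so 3.07% of measured genes were at least as far up. NRXN2 ranked 419th and STMN4 497th from the top, with 3.96% and 4.69% of genes at least as far up. DPYSL3 ranked 231st from the bottom, with 2.18% of genes at least as far down. The ranks were similar among genes of like signal. Within 0.5 log2 units of the mean level of DCX lay 2350 genes, DCX included, of which 64 (2.72%) were as far up or further. The same window held 106 of 2318 genes (4.57%) for STMN4 and 95 of 2240 (4.24%) for NRXN2. For DPYSL3 it held 36 of 1166 genes (3.09%) as far down or further.

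**Figure D2:**
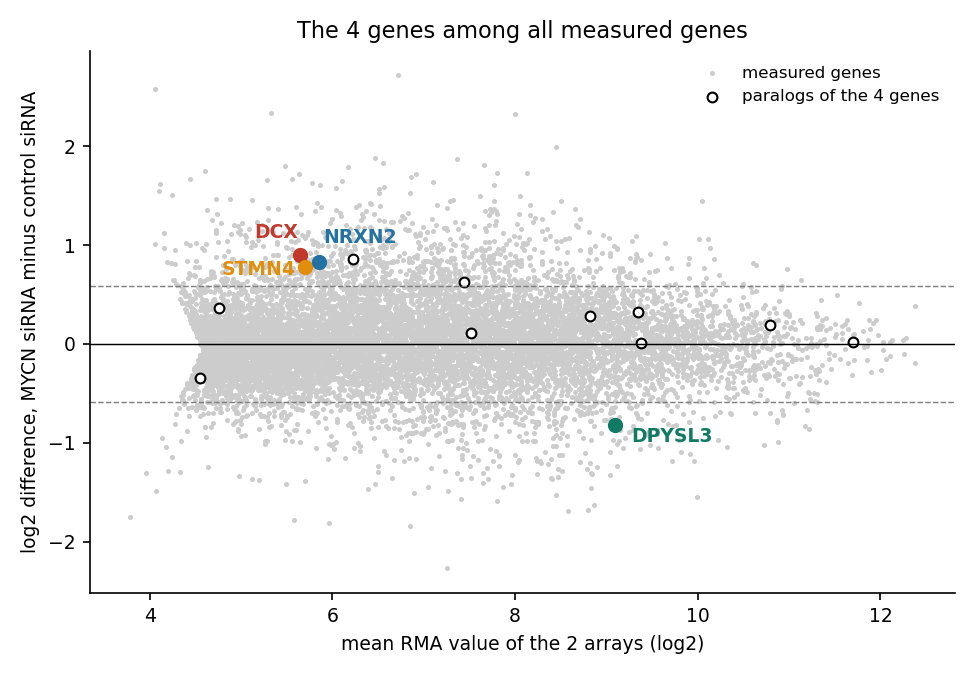
Log2 difference (MYCN siRNA minus control siRNA) against the mean log2 value of the 2 arrays for 10592 measured genes (grey), the 10 measured paralogs of DCX, STMN4 and DPYSL3 (open circles) and the 4 genes (coloured), with dashed lines at 1.5-fold. NRXN2 had no measured paralog. DCX, STMN4 and NRXN2 sit together above the upper line at low mean values, and DPYSL3 sits below the lower line at a high one.

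The nearest measured protein-coding genes in the plane of the 2 array values were found for each member over these 2 arrays only. TMEM45B lay nearest to DCX at a distance of 0.05 log2 units, followed by HNRNPA1L2 at 0.07. SNX33 (0.03) and PYROXD2 (0.06) lay nearest to STMN4, ZNF428 (0.05) and COA5 (0.06) to NRXN2, and BZW2 (0.07) and TIMM13 (0.08) to DPYSL3. With 2 arrays this likeness means only that both signals and their difference were close.

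The paralogs show how each member stood in its own family. Of the doublecortin family, 9 of 10 listed genes had a named row and 4 were measured. DCLK2, a kinase with doublecortin domains, had a log2 level of 6.66 in MYCN siRNA cells and 5.79 in control cells. Its difference of 0.86 (1.82-fold higher) was within 0.04 of that of DCX. DCLK1, another such kinase, was at 4.94 in MYCN siRNA cells and 4.58 in control cells (0.36), the latter just below that array's median. DCDC2B was at 4.38 in MYCN siRNA cells and 4.72 in control cells (−0.35), around the array medians. The other 5 named genes, DCDC1, DCDC2, DCLK3, RP1 and RP1L1, were below the median on both arrays.

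All 4 stathmins were measured, and STMN4 had the largest difference of them. STMN3, another neuronal stathmin, was at 8.96 in MYCN siRNA cells and 8.68 in control cells (0.28). STMN1, the widely expressed stathmin, was at 7.57 in MYCN siRNA cells and 7.45 in control cells (0.12). STMN2, also called SCG10 and a growth cone stathmin, was at 11.71 in MYCN siRNA cells and 11.69 in control cells (0.02). The difference of STMN4 thus exceeded that of its paralogs by 0.50 to 0.76, while each of the 3 paralogs differed by less than the probe-set SD of 0.32.

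All 5 CRMPs were measured, and DPYSL3 was the one with a negative difference. DPYSL4 (CRMP3) was at 7.76 in MYCN siRNA cells and 7.13 in control cells, 1.54-fold higher (0.62). CRMP1 was at 9.51 in MYCN siRNA cells and 9.19 in control cells (0.32). DPYSL2 (CRMP2), which carries tubulin to growing axons, was at 10.88 in MYCN siRNA cells and 10.69 in control cells (0.20). DPYSL5 (CRMP5) was at 9.38 in MYCN siRNA cells and 9.37 in control cells (0.01). The difference of DPYSL3 minus that of a paralog was −0.84 for DPYSL5, the nearest, and −1.45 for DPYSL4, the farthest. The paralogs share sequence, and how far their probes read each other was not tested.

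Of the neurexins analysed here, NRXN2 was the one measured. NRXN3 was below the median on both arrays, at 3.96 in MYCN siRNA cells and 4.41 in control cells. NRXN2 thus had no measured paralog. Over the doublecortin, stathmin and CRMP families, the 10 measured paralogs had a median difference of 0.24, against 0.01 for all measured genes. Of these, 9 were above 0, as were 50.9% of all measured genes. Among the 10, 2 (DCLK2 and DPYSL4) passed 1.5-fold upward and none downward, beside 8.81% and 5.79% of all measured genes. The 9 include DCLK1, and the 1 below 0 is DCDC2B, each measured only through the array where it was higher.

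**Figure D3:**
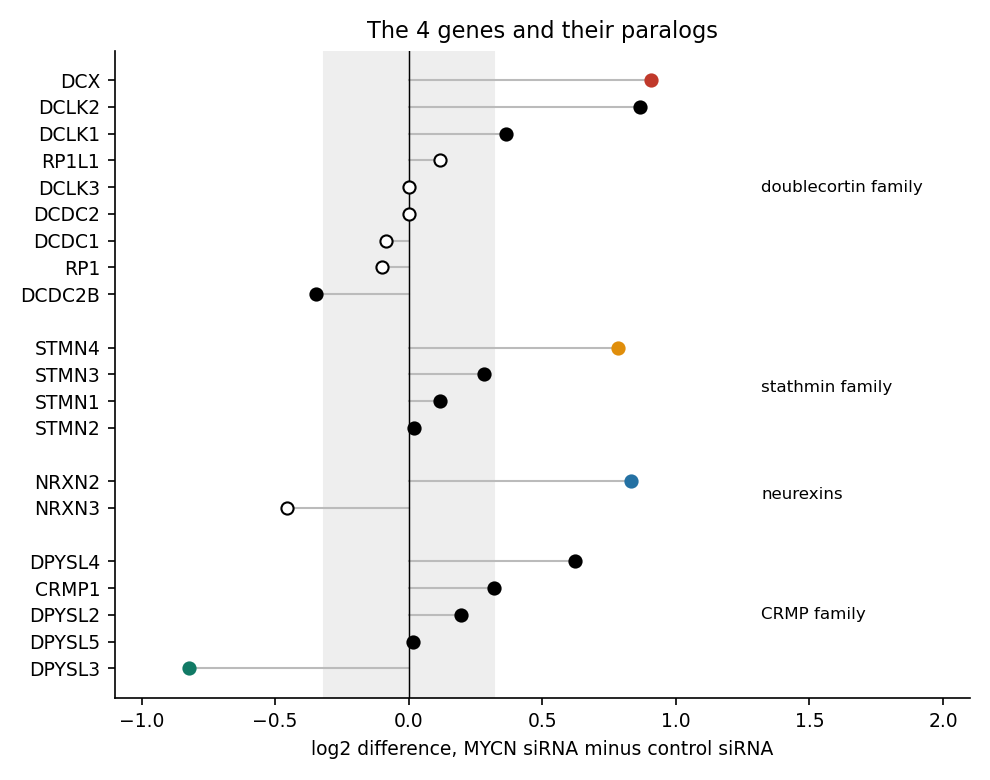
Log2 difference (MYCN siRNA minus control siRNA) of DCX, STMN4, NRXN2 and DPYSL3 (coloured) and their paralogs by family, with open circles for genes below the median on both arrays and a grey band of 1 probe-set SD (0.32) on either side of 0. DCLK2 lies beside DCX, STMN4 lies apart from the other stathmins, and DPYSL3 lies on the opposite side of 0 from DPYSL4.

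The genes that work with DCX and the CRMPs were described by lists chosen with earlier results of these data known. Of 25 listed genes of neuronal microtubules, 15 were measured, with a median difference of 0.22, and 11 were above 0. Of all measured genes 50.9% were above 0, with a median of 0.01. MAP6, which protects microtubules from cold, was at 7.92 in MYCN siRNA cells and 6.27 in control cells, 3.13-fold higher. MAP1B, an axonal microtubule protein, was at 11.45 in MYCN siRNA cells and 10.81 in control cells (0.65). TBCE, a tubulin folding cofactor, was lowest at −0.58, followed by NDEL1, a dynein regulator of migrating neurons, at −0.31. In this list 3 genes passed 1.5-fold upward and none downward, beside 8.81% and 5.79% of all measured genes. Of 18 kinases and partners that act on DCX, CRMPs or stathmins, 8 were measured, with a median of 0.07 and none past 1.5-fold. Few of 8 genes would pass at the all-gene shares just given, so nothing is read from this. CDK5, which phosphorylates DCX and CRMPs, was at 10.35 in MYCN siRNA cells and 9.81 in control cells (0.53), GSK3B was at 0.24, MAPK10 at −0.07 and GSK3A at −0.27.

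Growth cone and axon genes, with 13 of 18 measured, had a median of 0.33. Of them, 4 passed 1.5-fold upward and none downward, beside 8.81% and 5.79% of all measured genes. NFASC, an adhesion molecule of the axon initial segment, was at 7.05 in MYCN siRNA cells and 5.96 in control cells (1.09), and TAGLN3, a neuronal actin-binding protein, differed by 0.84. GPRIN1 (−0.29) and CNTN1 (−0.22) were the lowest of the list.

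The binding partners of neurexins lay on both sides of 0. Of 30 listed, 16 were measured, with a median of −0.03, and 1 passed 1.5-fold upward and 3 downward. The upward share, 6.25%, was near the 8.81% of all measured genes, of which 5.79% passed downward. CLSTN3, a calsyntenin that binds neurexins, was at 6.34 in MYCN siRNA cells and 5.35 in control cells (0.99), and CLSTN2 differed by 0.54. ADGRL2, a latrophilin, was at 7.44 in MYCN siRNA cells and 8.56 in control cells, 2.18-fold lower. CBLN1, which bridges neurexins to a postsynaptic receptor, was at 7.13 in MYCN siRNA cells and 7.97 in control cells (−0.84). LRRTM1, a postsynaptic neurexin ligand (−0.82), and CASK, a scaffold that binds the neurexin tail (0.05), were named with their values in view.

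Other neuronal markers were mixed. Of the list of neurofilament, RNA-binding and synaptic markers only 5 of 17 genes had a named row, all measured, with a median of −0.11. It ran from UCHL1, a neuronal ubiquitin hydrolase, at −0.79 to PRPH, a filament protein of peripheral neurons, at 0.18. The 9 measured neuronal transcription regulators had a median of 0.27, from POU3F2 at −0.25 to MYT1 at 0.82. This list includes REST, the repressor of neuronal genes, so its median pools genes of opposite roles. REST was dim at 4.93 in MYCN siRNA cells and 4.39 in control cells (0.54), and was measured only through the MYCN siRNA array. The 6 measured neural progenitor genes had a median of 0.11, from SOX2 at −0.18 to NES, the progenitor filament nestin, at 0.98. Of them, 2 (NES and PAX6) passed 1.5-fold upward and none downward, beside 8.81% and 5.79% of all measured genes. PAX6 (0.97) was measured only through the MYCN siRNA array, at 4.64 in MYCN siRNA cells and 3.67 in control cells.

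The labelled cell type was checked on the same arrays. Of 12 markers of adrenergic neuroblasts, 11 were measured. HAND1, GATA2 and HAND2 stood at 11.80, 10.96 and 10.48 in MYCN siRNA cells and 11.83, 10.73 and 10.57 in control cells. TH, the first enzyme of noradrenaline synthesis, was at 6.53 in MYCN siRNA cells and 6.47 in control cells, and ISL1 was at 7.76 in MYCN siRNA cells and 8.19 in control cells. The median difference of this list was 0.12, from ISL1 at −0.43 to DBH, the enzyme that makes noradrenaline, at 1.45. The 7 measured mesenchymal markers had a median of 0.00, from PRRX1 at −0.51 to VIM at 0.57. PRRX1 was measured only through the control siRNA array, at 4.35 in MYCN siRNA cells and 4.86 in control cells. Among the mesenchymal markers SNAI2 also had a high signal, at 10.82 in MYCN siRNA cells and 11.17 in control cells. The 6 measured Schwann and glial markers had a median of −0.24, from NGFR at −0.46 to S100B at 1.02. SOX10, the defining factor of Schwann cells, was at 5.91 in MYCN siRNA cells and 6.19 in control cells. All 12 proliferation markers were measured, with a median of −0.22, and 2 passed 1.5-fold downward, beside 5.79% of all measured genes. These were CCNA2 at −1.04 and MCM2 at −0.62, while MKI67 was at 0.15. Of 10 interferon genes 2 were measured, RIGI at 0.54 and ISG15 at −0.17. RIGI was measured only through the MYCN siRNA array, being below the median on the control siRNA array. The other named interferon genes were dim, below the median on both arrays. Among them IFIT2 (0.75), IFIT3 (0.38) and IFIT1 (0.36) were higher in MYCN siRNA cells and IFIH1 (−0.13) was lower. IFIT2 narrowly missed the median on the MYCN siRNA array. The part that cell cycle, glial or interferon differences play in the values of DCX, STMN4, NRXN2 and DPYSL3 was not tested.

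**Figure D4:**
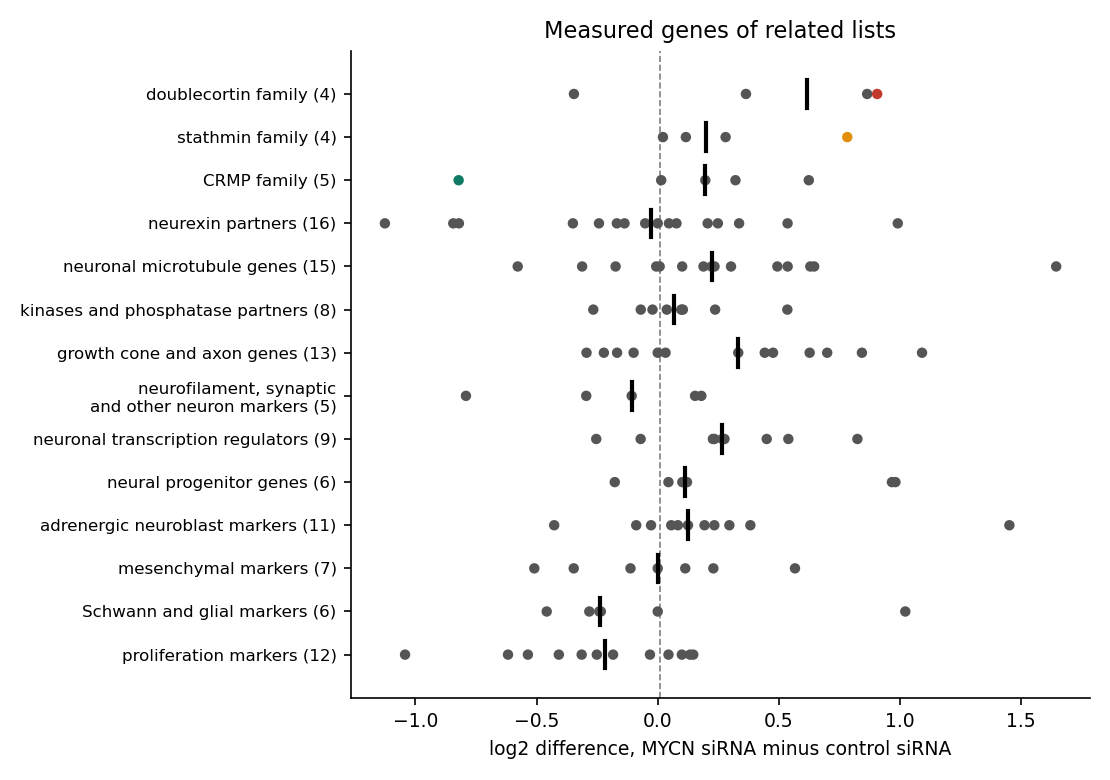
Log2 difference (MYCN siRNA minus control siRNA) of each measured gene in the lists with at least 3 measured members, whose number is in brackets, with a black bar at the median and a dashed line at the median of all measured genes (0.01). DCX, STMN4 and DPYSL3 are coloured in their families, and MAP6 at 1.64 is the point furthest to the right. The family bars count these members, which were chosen on this contrast. Without them the medians are 0.36 for the doublecortin family, 0.12 for the stathmins and 0.26 for the CRMPs.

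The differences of DCX, STMN4, NRXN2 and DPYSL3 kept their direction and stayed between 1.5-fold and 2-fold under each normalization tried. Adding 16 to the linear values, which damps dim genes, brought DCX to 0.68, NRXN2 to 0.65 and STMN4 to 0.60, against −0.80 for DPYSL3. The 3 dim genes lost more of their difference under this offset than DPYSL3 did, which follows from their lower signals and is no separate result.

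**Figure D5:**
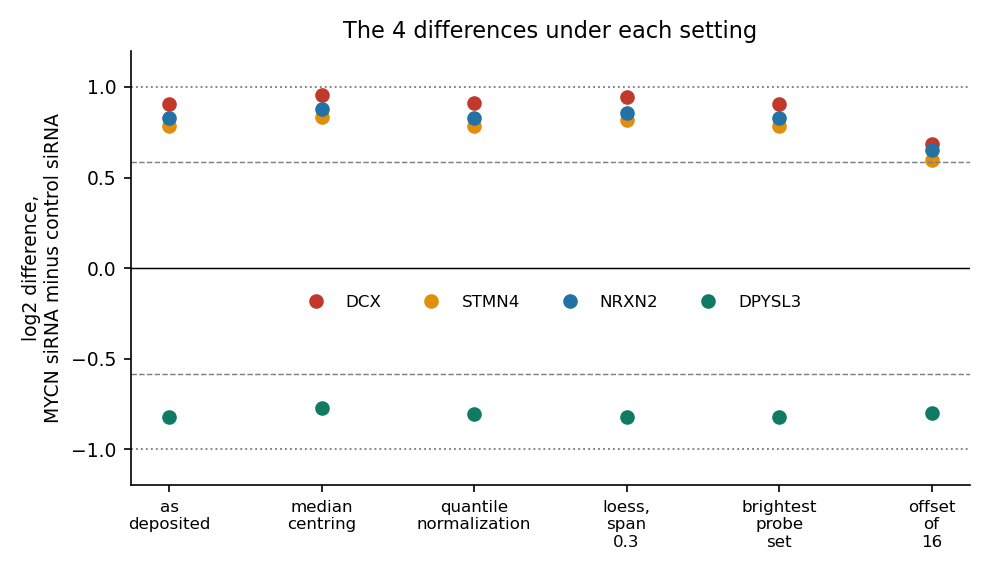
Log2 difference (MYCN siRNA minus control siRNA) of DCX, STMN4, NRXN2 and DPYSL3 as deposited and under 5 alternatives, with dashed lines at 1.5-fold and dotted lines at 2-fold. All points lie between the dashed and dotted lines, and the offset of 16 brings STMN4 to 0.60, nearest to the 1.5-fold line.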

How the data were processed

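RNA from 1 MYCN siRNA and 1 control siRNA culture was hybridised to 1 Affymetrix array each. The authors deposited log2 values, 1 for each probe set on each array, which RMA produced per the submitters' processing notes. The RMA software, its version and its settings are unstated in the sources used here. The control array's title carries the unexplained word reanalysis, so whether both columns come from 1 RMA run is not known, and a difference between runs would be part of every difference printed. Their sorted values lay within 0.128 of each other. The values ran from 0.85 to 13.5 without centring, and 1859 rows (4.02%) held the same value on both arrays. Of 46255 rows, 15835 had 1 gene symbol in the platform annotation, none had several and 30420 were unnamed here; all 15835 gene identifiers matched RefSeq (GRCh38.p14). Probe sets of a gene were averaged. Analysis used Python 3.11.15 with pandas 2.3.3 and statsmodels 0.14.6, and scripts were tested on simulated data. The number of arrays limits the precision, and no p-value was computed. The members and lists were chosen with earlier results of these data known. Named were the 4 members, measured family members, up to the 2 highest and 2 lowest genes of each other list, and 2 nearest genes per member. LRRTM1, CASK, HAND1, GATA2, TH, the unmeasured interferon genes, the chromosomal neighbours and the genes with equal values were chosen with values in view. Alternatives were median centring, quantile and loess normalization (span 0.3), the brightest probe set, no filter or one at the 70th percentile, a 2-fold threshold and an offset of 16.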

Additional observations from a re-analysis of the deposited data

How the results depend on the processing

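No paired analysis was possible because each group has 1 array. Over 5 alternatives the difference ran from 0.68 to 0.96 for DCX, from 0.60 to 0.83 for STMN4, from 0.65 to 0.88 for NRXN2 and from −0.82 to −0.77 for DPYSL3. The brightest probe set changes nothing for genes with a single one. The counts past 1.5-fold were 933 upward and 613 downward, and stayed within 1.5 times of that except at the stricter 2-fold threshold, which 234 and 123 genes passed. Of 98 list medians recomputed, 96 stayed within the probe-set SD of their value. The doublecortin median, in which DCX itself is counted, was 0 in place of 0.61 with no filter, which adds 5 dim genes. Without DCX the 3 measured genes of that family had a median of 0.36. The median of the Schwann and glial markers was 0.37 in place of −0.24 with the filter at the 70th percentile, which leaves fewer genes. The medians of the neurexin partners, the kinases and partners, the neurofilament and synaptic markers and the mesenchymal markers lay near 0 and changed sign under some settings. The neurexins (1 measured gene) and the interferon genes (2) gave no median. Control signal near the array median is a limit for DCX, STMN4 and NRXN2.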

Other observations

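The genes beside each member on its chromosome were taken from the measured protein-coding genes in RefSeq order. CAPN6, the calpain-family gene that binds microtubules and lies next to DCX on chromosome X, had a log2 level of 7.70 in MYCN siRNA cells and 6.01 in control cells, which is 3.22-fold higher and exceeds the difference of DCX itself. ALG13 on the other side of DCX was at −0.12. STMN4 on chromosome 8 lies next to DPYSL2, a CRMP (0.20), and to TRIM35 (0.13). NRXN2 on chromosome 11 lies between CCDC88B, at 4.83 in MYCN siRNA cells and 5.36 in control cells, and SF1 (−0.15). DPYSL3 on chromosome 5 lies between POU4F3 (−0.32) and JAKMIP2. JAKMIP2 went the other way from DPYSL3, at 9.39 in MYCN siRNA cells and 8.82 in control cells (0.57). STK32A overlaps DPYSL3 in the annotation and was below the median on both arrays, at 4.02 in MYCN siRNA cells and 3.54 in control cells. These neighbours were looked up with the values in view.

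Of the measured genes, 123 had exactly the same value on both arrays, among them CNTN2, TWIST1 and ERBB3 of the lists and PTK2B, the gene after TRIM35. None of DCX, STMN4, NRXN2 and DPYSL3 was among them.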
